A study of Homo sapiens with 6 samples.

Results

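Nuclear receptor genes were followed in the human pancreatic carcinoma line PANC1 through gemcitabine treatment by their transcript levels and by the accessibility of chromatin at their starts. The members are 45 listed genes of the nuclear receptor family, and 44 of them were found by Ensembl identifier among the 20461 protein-coding genes of the deposited RNA-seq table, NR2E3 being the exception. Cells were grown for 24 hours and then given vehicle (0.1% DMSO) or gemcitabine at 50 nM for 48 hours, with 2 RNA-seq libraries for each condition that the study calls biological replicates. DNaseI-seq, which maps DNA that an added nuclease can reach in nuclei, was done on 1 vehicle and 1 gemcitabine library. Gemcitabine is a cytidine analogue that interferes with DNA synthesis. The labels name charcoal-stripped and dialysed serum among the culture materials. In the methods of the study cells were cultured in fetal bovine serum, with the stripped and dialysed kinds used where appropriate. The methods do not say which serum the cells of these libraries received. Charcoal stripping removes steroid and thyroid hormones and other lipophilic ligands from serum. Every library comes from this established line.

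Nuclear receptors are transcription factors, nearly all with a zinc-finger domain for DNA binding, which NR0B1 and NR0B2 lack, and most carry a pocket for small lipophilic molecules. Steroid receptors mostly bind DNA as homodimers, whereas the receptors for vitamin D, retinoic acid, thyroid hormone, fatty acids and oxysterols pair with a retinoid X receptor (RXR). Ligand binding exchanges corepressor complexes for coactivators at the target gene. A further group, the orphan receptors, acts with no established natural ligand, and their activity follows largely from how much of the protein is made.

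Depth was lower in both gemcitabine libraries, at 13194533 and 13275457 assigned fragments, than in the vehicle libraries, at 15153593 and 15766237. At these depths 3 fragments correspond to 0.190 to 0.227 CPM, the fragments of a gene relative to the library total. The vehicle libraries were closer to each other than the gemcitabine libraries, the chi-square of their counts averaging 2.17 over 13861 genes against 5.16 over 14144 genes. The epithelial keratins KRT7, KRT8 and KRT18 and the mesenchymal filament VIM were abundant in every library (336 to 1660 FPKM, a level relative to transcript length and library depth). KRT19 (3.05 to 6.91 FPKM) and EPCAM (2.09 to 4.29 FPKM) were far lower. The leukocyte gene PTPRC had 2 to 9 fragments a library, and the acinar and islet genes PRSS1, INS and GCG had none.

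Of the 44 receptor genes, 26 had a mean of at least 1 FPKM in 1 condition, and 15 reached 20 FPKM. NR4A1, the immediate-early orphan receptor Nur77, was the most abundant in FPKM. It had 250 and 236 FPKM in the vehicle libraries and 175 and 191 FPKM in the gemcitabine libraries. It alone made up 28.8 and 29.1% of the summed receptor FPKM in vehicle and 23.9 and 25.7% after gemcitabine. In fragments NR4A1 did not lead clearly, with 3396 and 4005 in vehicle beside 3634 and 3657 for NR2F1. After gemcitabine NR2F1 had more, at 2242 and 2518 fragments against 2149 and 2162. The COUP-TF orphans, which regulate lineage and metabolic genes, came next in FPKM. NR2F1 had a vehicle mean of 96.8 ± 7.15 FPKM (SD, n = 2), NR2F2 64.2 ± 6.19 and NR2F6 57.4. The following receptors, RARG (34.5 FPKM), RXRA (32.2 FPKM), NR1H3 (30.2 FPKM), NR3C1 (29.9 FPKM) and ESRRA (29.8 FPKM), lay within a few FPKM of each other in vehicle, and the order among the last 3 is not separated by their libraries. The summed FPKM of all 44 receptors was 861 and 822 in vehicle and 729 and 743 after gemcitabine. A library extract pools all cells, so that fewer cells with a transcript and less of it per cell cannot be told apart.

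**Figure D1:**
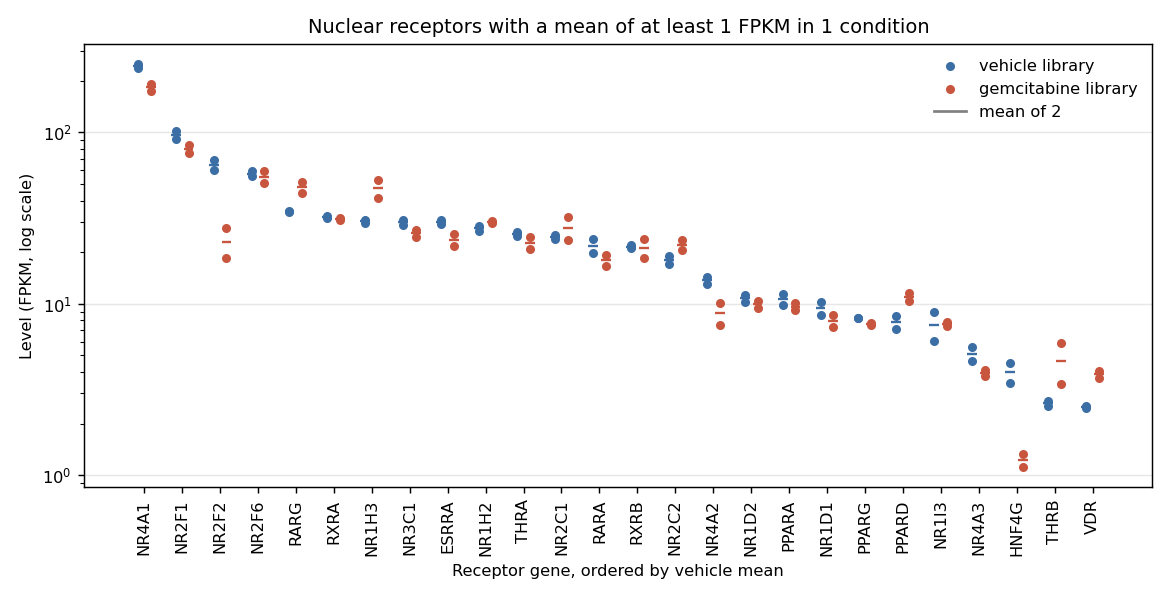
Level of the 26 receptor genes with a mean of at least 1 FPKM in 1 condition, ordered by the vehicle mean. Each point is 1 library (FPKM, log axis), blue for vehicle and red for gemcitabine, and the short lines are means of 2 libraries; NR2F2 and HNF4G show the widest gaps between the conditions, with both gemcitabine libraries below both vehicle libraries.

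The receptors absent or nearly absent from these cells were spread over the family. RXRG, NR2E1, NR5A1 and NR0B2 had no fragment in any library, so each was below 0.190 to 0.227 CPM. PGR, the progesterone receptor, had 5, 0, 2 and 1 fragments, and NR0B1 had 2, 2, 3 and 2. These 6 fell under the minimum of 10 fragments over the 4 libraries and were not tested. Another 12 receptors were tested although their means stayed below 1 FPKM, namely ESR1, ESR2, RARB, RORA, NR3C2, NR5A2, NR6A1 and, with 1 to 6 fragments a library, NR1H4, NR1I2, RORB, ESRRB and ESRRG. Their log2 fold changes had standard errors of 0.12 to 1.0, against 0.065 to 0.24 for the 26 above 1 FPKM. ESR1, the oestrogen receptor alpha gene, had 10 and 8 fragments in vehicle and 20 and 15 after gemcitabine, and its fold change of 1.06 (SE 0.45) on the log2 scale did not pass (edgeR adjusted p = 0.0766). RORA, a clock activator, had 10 and 15 fragments against 18 and 27, again without passing (edgeR adjusted p = 0.081). NR6A1, a germ cell receptor, had 63 to 80 fragments a library (log2 fold change -0.12, SE 0.20). At this depth none of these differences passed the adjusted p, although the few fragments of ESR1 and RORA did not overlap between the conditions. ESR2 is a special case in that its 186 to 252 fragments a library stood beside only 0.0518 to 0.102 FPKM. Fragments divided by FPKM give it an implied length of 196 kb, against 0.837 to 5.21 kb for the receptors above 1 FPKM, so its level on either scale is uncertain.

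The comparison of gemcitabine with vehicle asks which receptors changed expression under the drug. Each gene was tested with edgeR's quasi-likelihood test on the rounded fragments, with Benjamini-Hochberg adjustment over all 14854 tested genes. Calls required an adjusted p below 0.05, a fold change above 1.5, a mean of 0.1 FPKM or more in either condition and means at least 1 FPKM apart. Of the 38 tested receptors, 5 were called, all of them lower after gemcitabine (NR2F2, HNF4G, NR4A2, NR4A1 and THRA). Over all tested genes 4.43% were called lower and 5.69% higher. On the adjusted p alone, 11 receptors fell and 3 rose, where 20% of all tested genes fell and 18.5% rose. The other 24 receptors did not pass, and 21 of the 38 had an unadjusted p below 0.05. On the FPKM scale 4 receptors passed, in a limma test on log2(FPKM + 1): NR2F2, HNF4G and NR4A1 as lower and NR1H3 as higher. Tested receptors had a median log2 fold change of -0.135, against 0.0068 over all tested genes. By subfamily, the receptors that fell were 3 of 18 tested in NR1, 3 of 8 in NR2, 2 of 7 in NR3 and 3 of 3 in NR4, and the 3 that rose were all in NR1.

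**Figure D2:**
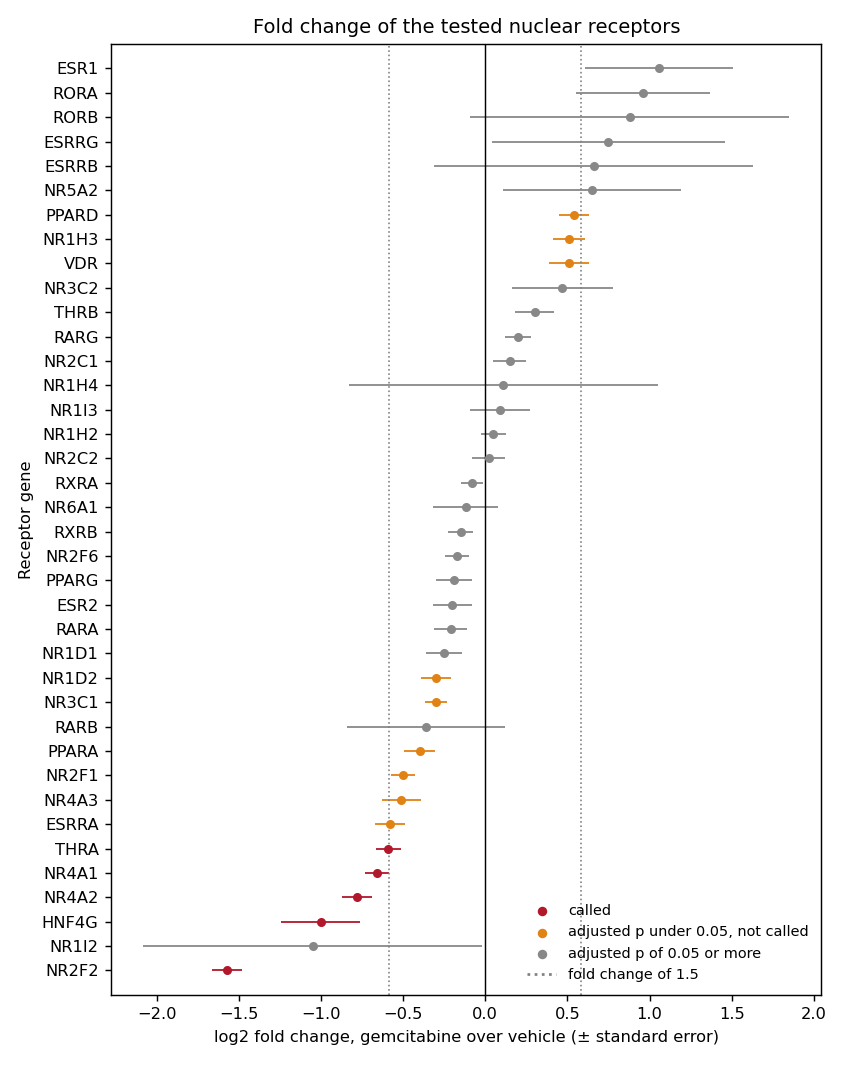
log2 fold change (gemcitabine over vehicle) of the 38 tested receptors, with bars of 1 standard error from edgeR. Red points were called, orange points passed the adjusted p alone, grey points did not pass, and dotted lines mark a fold change of 1.5; the called receptors all lie to the left, and the long bars belong to receptors below 1 FPKM.

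The orphan receptor NR2F2 (COUP-TFII, hg19 chr15:96869167-96883492), a regulator of vascular and mesenchymal development, showed the largest change among the called receptors. Vehicle libraries held 2552 and 2438 of its fragments, gemcitabine libraries 703 and 851. Both treated libraries were far below both controls. The log2 fold change was -1.57 (SE 0.090, edgeR adjusted p = 3.32e-08), which left 33.7% of the vehicle level and ranked 14 by size among the 658 genes called lower. In FPKM the mean went from 64.2 ± 6.19 to 23.0 ± 6.41 (SD, n = 2). Its closest relative NR2F1 (COUP-TFI) had 3634 and 3657 fragments against 2242 and 2518, a smaller difference with no overlap between the conditions. With 2 libraries a condition, a lack of overlap was also seen for receptors that did not pass, for instance NR1H2 (edgeR adjusted p = 0.661). The NR2F1 log2 fold change was -0.50 (SE 0.074, edgeR adjusted p = 0.000109), below the fold required for a call. NR2F6 had 2159 and 2195 fragments against 1684 and 1881 and did not pass (log2 fold change -0.17, SE 0.074, edgeR adjusted p = 0.0756). The makeup of the COUP-TF group within a library thus differed between the conditions. The ratio of NR2F2 to NR2F1 fragments was 0.702 and 0.667 in vehicle and 0.314 and 0.338 after gemcitabine, and that of NR2F2 to NR2F6 was 1.18 and 1.11 against 0.417 and 0.453. These ratios need no scaling between libraries and were picked after the values were seen.

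HNF4G, a receptor of gut and kidney epithelium that binds fatty acids, was called at a much lower level. It had 82 and 104 fragments in vehicle and 52 and 34 after gemcitabine, again without overlap. The log2 fold change was -1.0 (SE 0.24, edgeR adjusted p = 0.00403), the least precise of the calls, and the FPKM means were 3.99 ± 0.763 and 1.22 ± 0.148 (SD, n = 2). Without vehicle library 2 the adjusted p rose to 0.118 and the call was lost.

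The NR4A receptors are orphans whose genes are switched on within minutes to hours by growth factors, cyclic AMP, calcium and stress. A known route to these promoters is the transcription factor CREB, which binds the cyclic AMP response element and its shorter core TGACG. All 3 NR4A genes had a DNaseI peak within 1 kb of a start in both conditions. For NR4A2 and NR4A3 the 300 bases around the start (250 before to 50 after, GRCh37) are shown, read for that core on both strands. They are printed 5′ to 3′ on the strand of the gene, with each copy of TGACG, or of its reverse complement CGTCA, in capitals. The windows shown are chr2:157198811-157199110 for NR4A2 (reverse strand) and chr9:102583887-102584186 for NR4A3 (forward strand).
NR4A2: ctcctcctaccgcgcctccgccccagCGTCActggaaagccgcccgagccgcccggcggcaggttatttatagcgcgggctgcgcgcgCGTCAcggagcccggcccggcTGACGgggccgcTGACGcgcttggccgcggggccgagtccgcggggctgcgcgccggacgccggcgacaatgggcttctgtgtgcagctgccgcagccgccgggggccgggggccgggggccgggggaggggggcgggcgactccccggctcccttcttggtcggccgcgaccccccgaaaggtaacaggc
NR4A3: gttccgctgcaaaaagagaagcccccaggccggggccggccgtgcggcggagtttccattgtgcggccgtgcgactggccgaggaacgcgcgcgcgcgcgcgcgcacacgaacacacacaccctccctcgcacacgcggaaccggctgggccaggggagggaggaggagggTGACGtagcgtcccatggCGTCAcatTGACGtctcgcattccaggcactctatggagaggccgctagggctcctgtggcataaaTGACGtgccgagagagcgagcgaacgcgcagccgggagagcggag
Each of these windows holds 4 copies, whereas the 15 receptor windows outside the NR4A family, at starts with a peak, held at most 2. Among 5517 windows of tested genes with a peak at the start, 55 (1.0%) held 4 or more, and 39.3% held at least 1, as did 7 of 18 receptor windows. The limit of 4 is the count of the NR4A windows themselves, so the share only describes them. The full element TGACGTCA was found in the NR6A1 window alone (4.2% of all windows), and the TATA box letters TATAAA in 2 of 18 (5.1%), that of NR4A2 among them, where they lie on the opposite strand. The receptor core site AGGTCA was in the NR3C1 window alone (10.3%) and the GC box GGGCGG in 13 of 18 (69.7%). A match of letters is a description of the window and not of factor binding. TGACGTCA contains TGACG on each strand, so that the searches for these overlap.

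All 3 NR4A genes were lower after gemcitabine. NR4A1 had 3396 and 4005 fragments in vehicle against 2149 and 2162, a clear separation in spite of the spread between the vehicle libraries. Its log2 fold change was -0.66 (SE 0.072, edgeR adjusted p = 7.1e-06). NR4A2 (Nurr1), best known from dopaminergic neurons, had 561 and 605 fragments against 300 and 326. Its log2 fold change was -0.78 (SE 0.092, edgeR adjusted p = 1.38e-05), and its mean went from 13.7 ± 0.99 to 8.78 ± 1.86 FPKM (SD, n = 2). NR4A3 (NOR1) had 321 and 408 fragments against 225 and 247, with a log2 fold change of -0.51 (SE 0.12, edgeR adjusted p = 0.00337) that was below the fold for a call, and without vehicle library 2 the adjusted p was 0.134. The family members kept similar proportions, with NR4A2 at 0.165 and 0.151 of the NR4A1 fragments in vehicle and 0.140 and 0.151 after gemcitabine. NR4A3 stood at 0.0945 and 0.102 of NR4A1 in vehicle and 0.105 and 0.114 after the drug. Scaling by library totals ended the NR4A1 call, as did leaving out vehicle library 2. A limma test on log2(FPKM + 1) ended the calls of both NR4A1 and NR4A2, the latter with an adjusted p of 0.0786.

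Of the thyroid hormone receptors only THRA passed the test. THRA, the more abundant, had 1544 and 1572 fragments in vehicle and 897 and 1010 with gemcitabine, and the groups were well separated. Its log2 fold change was -0.59 (SE 0.076, edgeR adjusted p = 3.01e-05), only just past the 1.5-fold limit. THRB had 177 and 214 fragments against 231 and 215 and did not pass (log2 fold change 0.30, SE 0.12, edgeR adjusted p = 0.066). The THRB to THRA ratio was 0.115 and 0.136 in vehicle and 0.258 and 0.213 after gemcitabine. In FPKM, however, THRA went only from 25.6 ± 0.917 to 22.6 ± 2.62 (SD, n = 2), and the limma test gave an adjusted p of 0.356. THRA shares 473 exonic bases (6.7% of its exons) with the circadian repressor gene NR1D1 on the opposite strand. The sources do not say whether counting used strand. NR1D1 itself had 535 and 492 fragments against 362 and 436 and did not pass (edgeR adjusted p = 0.0807).

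**Figure D3:**
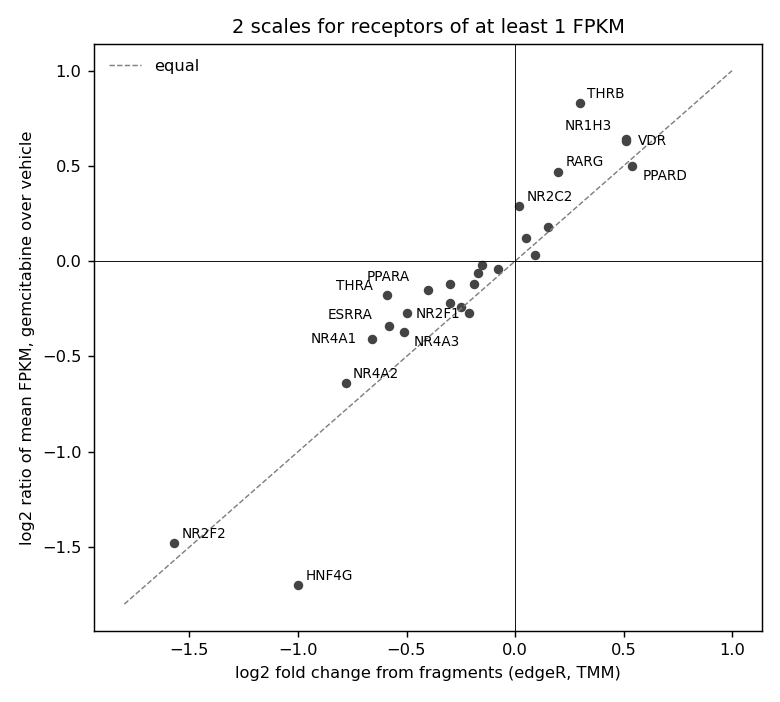
Change of the 26 receptors above 1 FPKM on both deposited scales. The x axis is the log2 fold change from fragments (edgeR, scaled by TMM), the y axis the log2 ratio of mean FPKM, and each point is 1 receptor; THRA (-0.59 against -0.18), THRB (0.30 against 0.83) and HNF4G (-1.0 against -1.70) lie far from the dashed line of equality, NR2F2 (-1.57 against -1.48) close to it.

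ESRRA, the oestrogen-related receptor that drives mitochondrial genes together with the coactivators PGC-1alpha and PGC-1beta, fell just short of a call. It had 771 and 732 fragments in vehicle against 444 and 485, with no overlap. The log2 fold change was -0.58 (SE 0.089, edgeR adjusted p = 0.000139). On the opposite strand TRMT112 shares 9.7% of the ESRRA exonic bases, and it did not pass in the test (log2 fold change 0.08, edgeR adjusted p = 0.385). The glucocorticoid receptor NR3C1, at 28.9 and 31.0 FPKM in vehicle, was the one abundant steroid receptor. Its fragments numbered 2302 and 2517 in vehicle and 1770 and 1838 after gemcitabine, a log2 fold change of -0.30 (SE 0.067, edgeR adjusted p = 0.00254, and 0.0905 without vehicle library 2). The mineralocorticoid receptor NR3C2 had 25 and 25 fragments against 34 and 30 and did not pass (edgeR adjusted p = 0.258).

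Among the fatty acid receptors of the PPAR family, PPARA fell and PPARD rose. PPARA, the regulator of fatty acid oxidation, had 531 and 630 fragments in vehicle and 416 and 394 after gemcitabine (log2 fold change -0.40, SE 0.092, edgeR adjusted p = 0.003, and 0.117 without vehicle library 2). PPARD, which is expressed in most tissues, had 464 and 443 against 575 and 641 (log2 fold change 0.54, SE 0.093, edgeR adjusted p = 0.000402). Neither set of libraries overlapped, and both changes were below the fold for a call. PPARG, the receptor of adipocyte differentiation, had 299 and 342 against 271 and 248 and did not pass (edgeR adjusted p = 0.174). Within a library the PPARD to PPARA ratio was 0.874 and 0.703 in vehicle and 1.38 and 1.63 after gemcitabine.

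Beside PPARD, the receptors that rose were the liver X receptor NR1H3 and the vitamin D receptor VDR. NR1H3 (LXRalpha), the oxysterol receptor that promotes cholesterol efflux, had 416 and 386 fragments in vehicle and 558 and 498 after gemcitabine. The log2 fold change was 0.51 (SE 0.095, edgeR adjusted p = 0.000722, and 0.0531 without vehicle library 2), and in FPKM the means were 30.2 ± 0.81 and 47.1 ± 8.08 (SD, n = 2). Its paralogue NR1H2 (LXRbeta) had 782 and 805 fragments against 747 and 767 (log2 fold change 0.05, SE 0.075, edgeR adjusted p = 0.661). VDR had 186 and 187 fragments against 238 and 252, tight in each condition and separate between them. Its log2 fold change was 0.51 (SE 0.12, edgeR adjusted p = 0.00356), and without vehicle library 1 or 2 the adjusted p was 0.0516 and 0.0745. With library totals in place of TMM, which moved the median of all genes from 0.0068 to 0.117, VDR, NR1H3 and PPARD passed the fold and were called. NR1H3 was also called higher in both limma fits and without vehicle library 1, and PPARD without vehicle library 1 and without gemcitabine library 1.

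The shared dimer partners RXRA and RXRB did not pass the test. RXRA had 1693 and 1738 fragments in vehicle and 1512 and 1483 with the drug. The fitted log2 fold change was -0.08 (SE 0.065, edgeR adjusted p = 0.344), with an interval of 2 SE from -0.21 to 0.05, and it read 0.03 with library totals. RXRB had 793 and 856 fragments against 712 and 665 (log2 fold change -0.15, SE 0.076, edgeR adjusted p = 0.144). The VDR to RXRA ratio was 0.110 and 0.108 in vehicle and 0.157 and 0.170 after gemcitabine. Of the retinoic acid receptors, RARG had 1238 and 1281 fragments against 1254 and 1423, which is at the limit of the test (log2 fold change 0.20, SE 0.077, edgeR adjusted p = 0.05). RARA had 623 and 637 against 560 and 444 and did not pass (edgeR adjusted p = 0.1), and RARB had 7 to 14 fragments a library. The circadian repressor NR1D2 had 631 and 724 fragments against 477 and 536 (log2 fold change -0.30, SE 0.091, edgeR adjusted p = 0.0159). It passed in 1 of the 4 fits that leave out a library, the adjusted p reaching 0.231 without vehicle library 2.

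The remaining receptors above 1 FPKM did not pass. NR2C1 and NR2C2, the testicular receptors 2 and 4 and repressors of many hormone-responsive genes, had log2 fold changes of 0.15 (SE 0.10) and 0.02 (SE 0.099). For NR2C2, 52.8% of the exonic bases overlap MRPS25 on the opposite strand, whose own log2 fold change was -0.25 (edgeR adjusted p = 0.0102). NR1I3, the xenobiotic receptor CAR, had 94 and 105 fragments against 87 and 109. It shares 33.3% of its exonic bases with TOMM40L on the opposite strand, which had 109 to 138 fragments a library, and reads in the shared bases cannot be assigned without strand.

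Genes that work with these receptors were read from lists of coregulators and of known targets. Of 17 coactivator genes tested, 10 fell and 4 rose, and of 12 corepressor genes 7 fell and 1 rose, with medians of -0.27 and -0.29 on the log2 scale, where 20% of all tested genes fell and 18.5% rose. The coactivators called lower were the PGC-1 family, which partners ESRRA and the PPARs in energy metabolism. PPARGC1B went from 230 and 219 fragments to 64 and 64 (log2 fold change -1.70, SE 0.15, edgeR adjusted p = 1.39e-06). PPRC1 went from 1851 and 1890 to 840 and 723 (-1.15, SE 0.076, edgeR adjusted p = 1.13e-07) and PPARGC1A from 257 and 295 to 161 and 147 (-0.73, SE 0.12, edgeR adjusted p = 0.000309). The PGC-1 transcripts did not overlap between conditions, which by itself was also seen for receptors that did not pass the test. The acetyltransferase gene KAT2B was called higher (log2 fold change 0.60, SE 0.088, edgeR adjusted p = 9.61e-05). No corepressor was called.

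The retinoid list had the highest median, 0.45, with 9 of 15 tested genes higher, 5 of them called, and none lower, where 18.5% of all tested genes rose and 5.69% were called higher. TGM2, a transglutaminase that retinoic acid induces in many cells, had 1292 and 1341 fragments in vehicle and 4310 and 4962 after gemcitabine (log2 fold change 1.93, SE 0.081, edgeR adjusted p = 3.36e-09). STRA6, the cell surface receptor for retinol-binding protein, had 77 and 83 against 327 and 320 (2.13, SE 0.13, edgeR adjusted p = 5.88e-08). RARRES3 (now PLAAT4) had 3 and 1 against 16 and 17, and the retinaldehyde reductase gene DHRS3 had 43 and 36 against 85 and 65. These genes also answer to other signals, and no ligand was measured. In the vitamin D list, 1 of 7 tested genes rose and 1 fell on the adjusted p alone, with a median of 0.11. The gene that rose was called: CYP24A1, which breaks down active vitamin D, had 150 and 157 fragments against 332 and 357 (log2 fold change 1.28, SE 0.11, edgeR adjusted p = 1.3e-06). DHCR7 fell (log2 fold change -0.26, SE 0.065, edgeR adjusted p = 0.00504). CYP27B1, CYP27A1, CUBN and SPP1 had only 1 to 7 fragments a library.

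In the other target lists genes passed the test in both directions. Glucocorticoid targets had 3 called higher (TSC22D3, ERRFI1 and NFKBIA) and 3 called lower (KLF9, DUSP1 and SGK1) of 14 tested, with a median of -0.02. On the adjusted p alone, 4 of the 14 rose and 7 fell. Over all tested genes 5.69% were called higher and 4.43% lower, and 18.5% rose and 20% fell on the adjusted p alone. Among 10 sterol targets of the LXRs, a list that includes the receptor gene NR1H3 itself, 3 rose and 3 fell. The apolipoprotein gene APOE rose from 14 and 12 fragments to 36 and 39. The lipogenic genes FASN (log2 fold change -0.97, SE 0.066, edgeR adjusted p = 1.38e-07) and SCD (-0.60, SE 0.077, edgeR adjusted p = 3.3e-05) fell. Of 11 PPAR targets 3 rose and 1 fell, and of 10 oestrogen targets 1 rose and 6 fell, with no call in either list. The counts for the PPAR targets are near the shares over all tested genes (18.5% higher, 20% lower). In the clock list of 13, the REV-ERB target ARNTL (now BMAL1) went from 152 and 198 fragments to 310 and 288 (log2 fold change 0.89, SE 0.13, edgeR adjusted p = 7.02e-05). CLOCK, its partner, fell from 637 and 734 to 407 and 405 (-0.64, SE 0.087, edgeR adjusted p = 4.96e-05). In the thyroid list of 7, the transcription factor gene KLF9 was called lower.

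**Figure D4:**
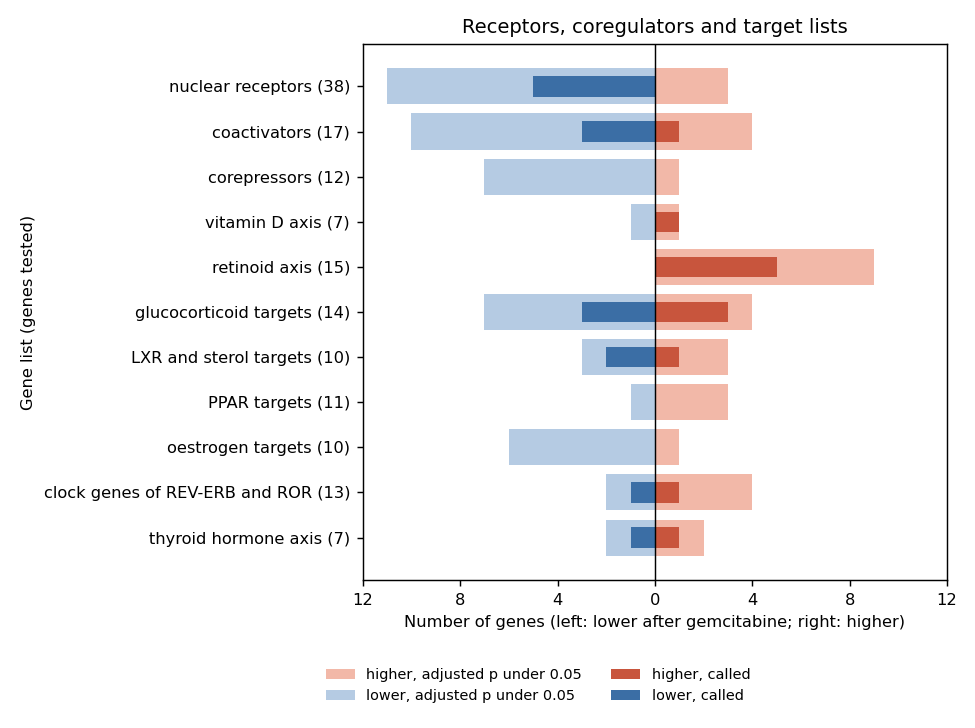
Number of genes per list that were higher (right) or lower (left) after gemcitabine, pale where the edgeR adjusted p was below 0.05 and dark where the gene was called, with the number tested in parentheses. The receptors have 11 lower and 3 higher, and the retinoid list has 9 higher and none lower. Some genes are counted in more than 1 list, so the bars are not independent. NR1H3 is counted both among the receptors and in the LXR list. KLF9 is in the glucocorticoid and thyroid lists, PER1 in the glucocorticoid and clock lists, and NRIP1 in the corepressor and oestrogen lists.

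DNaseI-seq gave a separate readout of the same genes, with 1 library for each condition and therefore no test. MACS peaks numbered 9606 in vehicle (median length 889 bases, 9.08 Mb in all) and 10695 after gemcitabine (1003 bases, 11.55 Mb). A peak within 1 kb of an annotated start was found for 12 of 44 receptors in vehicle and 17 after gemcitabine, 11 in both. All receptors with a peak were among the 38 tested, the basis that matches the share over tested genes given next. Of 14154 tested genes with an annotated start, 27.8% had such a peak in vehicle (95% Wilson interval 27.1 to 28.5%) and 32.2% after gemcitabine (31.4 to 33.0%), intervals that cover counting error only. The larger number after gemcitabine was thus seen for all genes as well. Peaks in both conditions were found at RXRB, NR1D1, NR1H2, NR1H3, NR2F1, ESR2, ESRRA, NR4A1, NR4A2, NR4A3 and NR6A1. THRA had a peak within 1 kb in vehicle only, from position -298 to 459 relative to the start, with a score of 58.5 (the MACS p-value on a negative log10 scale, times 10), where the lowest score listed is 50. Within 5 kb a gemcitabine peak with a score of 113.1 was listed with its centre 3619 bases from another annotated THRA start.

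After gemcitabine only, peaks were listed at RARG, PPARD, NR1D2, NR2F6, NR3C1 and NR3C2. Their scores lay between 51.8 (NR3C2) and 92.1 (NR2F6), so a peak listed in a single condition can be near the limit of calling. NR4A1 had the highest score of the NR4A genes, 127.2 in vehicle and 120.3 after gemcitabine. At NR4A3 the score was 75.8 and 108.0, and its whole 300-base window lay inside the peak in both. At NR4A2 the vehicle peak began 137 bases after the start and left the window uncovered, whereas the gemcitabine peak ran from position -378 to 1308. Thus the NR4A transcripts were lower after gemcitabine while peaks at their starts were listed in both conditions. No peak within 5 kb was listed in either condition for NR2F2, HNF4G, VDR or RXRA, although NR2F2 and RXRA had 64.2 and 32.2 FPKM in vehicle. A gene without a listed peak may still be accessible below the threshold of these libraries.

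**Figure D5:**
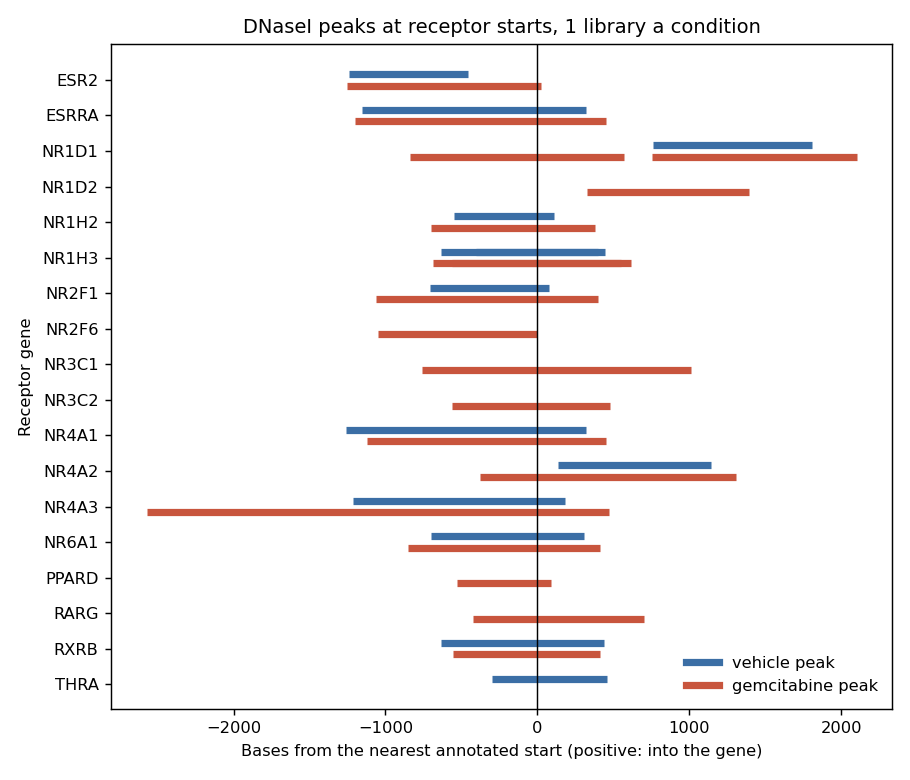
DNaseI peaks within 1 kb of a start for the 18 receptors that had 1 in either condition. Bars span each peak in bases from the nearest annotated start (positive into the gene), blue for vehicle and red for gemcitabine; 11 receptors have bars of both colours, THRA a blue bar only and 6 receptors red bars only.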

How the data were processed

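RNA-seq was done on 2 vehicle and 2 gemcitabine libraries of PANC1 cells and DNaseI-seq on 1 of each. Per the labels and methods, the authors aligned reads to hg19 with TopHat2 2.0.8, and Cuffdiff 2.0.2 quantified protein-coding Gencode 15 genes with at least 10 reads. The deposited table holds estimated counts (fragments per gene and library, 86.8% of values whole) and FPKM, which the authors took from Cuffdiff. Cuffdiff's 2 scaled columns were not used. The deposited DNaseI-seq peaks (MACS, p-value of 1e-05, hg19) carry a score, which is that p-value on a negative log10 scale, times 10.

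The members and lists were chosen with earlier results of these data known. Receptors were matched by Ensembl identifier, and 842 of the 20461 genes had no symbol. No receptor carried Cuffdiff's failed status, which 275 genes had in at least 1 library. Counts were rounded, the 14854 genes whose 4 libraries summed to at least 10 fragments were tested with edgeR 4.0.16 (R 4.3.3, TMM factors 0.959 to 1.05, quasi-likelihood test, no covariate, Benjamini-Hochberg), since Cuffdiff was not run. The biological coefficient of variation was 0.0522. SE was derived from the fold change and F. The test was checked on simulated data. Values were to be given in full for called receptors, VDR, RXRA and those past the adjusted p, and for up to 4 called genes per list; further receptors were added after their values were seen.

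Starts came from Gencode 44 lifted to GRCh37, a later version than the authors used, and promoter windows from the GRCh37 genome. Peaks within 1 kb of a start were counted. Alternatives were DESeq2 1.42.0, other scalings and filters, limma 3.58.1 on log2(FPKM + 1) and log2(FPKM + 0.1), each library left out, the call criteria without FPKM, other FPKM limits, 5 kb windows and a minimum score of 100. The screens, the network model and public peaks were not analysed here, and some items that meet the naming rule are not reported here.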

Additional observations from a re-analysis of the deposited data

How the results depend on the processing

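The call of NR2F2 and its direction held in all 11 alternative fits, between -1.73 and -1.42 on the log2 scale without 1 library. The count of called receptors was 5, and it was 4 to 6 with DESeq2, other size factors, library totals and other filters, 3 with limma on log2(FPKM + 1), 3 with limma on log2(FPKM + 0.1) and 4 to 8 with a library left out (8 without gemcitabine library 2). The count past the adjusted p was 14, then 4 and 5 in the limma fits, and 7 to 17 with a library left out (7 without vehicle library 2). The limma fits also use FPKM, whose scale differs from that of fragments; the cause was not tested. With library totals the receptor median moved from -0.135 to -0.025, RXRA changed sign to 0.03, and genes called higher made up 73.6% of all calls instead of 56.2% (73.3 and 72.2% in the limma fits). The receptors then called were HNF4G, NR2F2 and NR4A2 as lower and NR1H3, PPARD and VDR as higher. THRA lost its call with edgeR's own filter, library totals, both limma fits and without vehicle library 1 or gemcitabine library 1. Of 60 fold changes refitted without a library, 50 kept direction and side of the threshold and 10 no longer passed. Of 105 under other settings 82 did, 22 no longer passed and 1 changed sign. With a minimum score of 100 the receptors with a peak at a start numbered 3 in vehicle and 6 after gemcitabine. No paired analysis was possible because the table's library index matches no replicate number in the labels with certainty. With 2 libraries a condition and 1 for DNaseI-seq, depth limits the receptors below 1 FPKM most.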
